A study of Mus musculus with 24 samples.

Results

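The genes described here are 8 neuropeptide precursors measured in pancreatic islets: Npy, Pdyn, Penk, Cartpt, Vip, Gal, Adcyap1 and Nts. They were chosen by name. Every noncontrol probe of the array whose gene name or RefSeq accession belongs to one of them was taken, provided that 6 or more arrays had it well above background in either channel. All 10 of their probes passed, which left all 8 genes among 18071 genes tested, and 10 probes among 25910 kept of 41174. RNA came from islets that were freed from the pancreas by collagenase. The mice were female and 10 days, 4 weeks, 12 weeks or 20 weeks old. On each two-colour array the islet RNA of 1 NOD/LtJ mouse (NOD, a strain that develops autoimmune diabetes) carried Cy5. The Cy3 channel held RNA pooled from 6 NOD.B10Sn-H2b/J mice of that age (NOD.B10, which share much of the NOD background but carry the H2b haplotype at the major histocompatibility complex and served as healthy controls). There were 6 NOD mice per age, 24 arrays in all, and all had the same dye orientation. From the narrow spread of its channel, the control was taken to be a single pool per age, run 6 times, which the labels do not state. The tests thus leave out the spread between control mice, and pools that differed would show as a difference between ages.

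A neuropeptide is made as a longer precursor that enters the secretory pathway. Prohormone convertases cut it at pairs of basic residues, and the active peptides are stored in dense core granules and act on G protein coupled receptors. In islets such peptides come both from nerve endings that reach the islet and from endocrine cells themselves. Neuropeptide Y and galanin are known to restrain insulin release, whereas vasoactive intestinal peptide (VIP) and pituitary adenylate cyclase activating polypeptide (PACAP, from Adcyap1) raise cyclic AMP and enhance it. Dynorphins from Pdyn and enkephalins from Penk are opioid peptides.

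The array read each precursor through probes of 60 bases. Shown are 4 that hold in-frame pairs of codons for basic residues or a repeated peptide sequence. In the Npy, Cartpt and Nts probes, capitals mark every such pair in the reading frame. A marked pair is not thereby a site that a convertase cuts, since such pairs also occur inside active peptides. In the Penk probe, capitals mark an 18-base run that occurs 2 times within the probe and holds the codons of Met-enkephalin, so this probe reads a repeated part of the precursor. Positions are those of the files, on mm9, and a probe that spans more bases in the genome than its own length crosses an intron.
Npy, chr6:49773743-49777505, plus strand: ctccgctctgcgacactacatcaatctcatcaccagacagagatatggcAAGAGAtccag
Penk, dimmer probe, chr4:4061458-4061517, minus strand: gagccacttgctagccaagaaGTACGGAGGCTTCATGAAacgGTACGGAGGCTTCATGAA
Cartpt, brighter probe, chr13:100668967-100669956, minus strand: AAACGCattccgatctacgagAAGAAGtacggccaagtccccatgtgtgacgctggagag
Nts, chr10:101944967-101945026, minus strand: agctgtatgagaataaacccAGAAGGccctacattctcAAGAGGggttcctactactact
The Npy probe spans 3763 bases of the genome and the Cartpt probe 990, so both cross an intron, whereas the Penk and Nts probes lie within 60 bases. The other probes were at chr2:129512323-129512382 (Pdyn, minus strand), chr10:4699238-4699297 (Vip, minus strand), chr19:3411143-3411202 (Gal, minus strand) and chr17:93604401-93604460 (Adcyap1, plus strand). The brighter Penk probe was at chr4:4060735-4060794, on the 3' side of the one shown. The dimmer Cartpt probe, at chr13:100668977-100669966, overlaps the one shown. RefSeq places the Vip gene on the plus strand, whereas its probe was listed on the minus strand. The cause of this difference was not tested. The exon or untranslated region under each probe was not annotated here.

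Promoters were searched on both strands for the cyclic AMP response element TGACGTCA and for its core TGACG, of which every full element holds 2 overlapping copies, 1 on each strand. The RefSeq table of promoters (GRCm38.p6, 250 bases before to 50 after each start) held 7 of the 8 genes; Penk was not matched. The full element was in 1 of the 7 genes, against 1.79% of all 32851 windows of that length, and the core was in 5 of the 7, against 20.8% of windows. These shares count windows and not genes, and Pdyn and Adcyap1 had 2 windows each. The stretches of Cartpt, Vip and Adcyap1 are shown because Cartpt held the full element and the other genes encode the peptides that raise cyclic AMP. Capitals mark the match, and the sequences read 5' to 3' on the gene's strand.
Cartpt, chr13:99900758-99900825, minus strand: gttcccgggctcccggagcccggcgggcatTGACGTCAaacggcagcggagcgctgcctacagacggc
Vip, chr10:5639109-5639173, plus strand: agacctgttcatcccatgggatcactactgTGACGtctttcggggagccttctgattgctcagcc
Adcyap1, chr17:93198896-93198960, plus strand: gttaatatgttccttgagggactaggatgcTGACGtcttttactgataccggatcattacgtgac
The core was also in the windows of Gal (after the start, at position 19) and Nts, and neither motif was in those of Npy or Pdyn. A match describes the letters of these windows and does not show that a factor was bound.

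Ratios are log2(NOD/pool), above 0 where NOD islets had more, and errors are SDs over 6 mice unless stated. A gene was called at an age, or between ages, when the limma fit over all 24 arrays gave a Benjamini-Hochberg adjusted p under 0.05 over all 18071 genes and the change was at least 2-fold. The mice are separate animals, so this spread includes biological variation. No NOD sample was measured again, so variation from islet isolation, labelling and arrays is also in it and was not separated. Well above background were 42.3% to 64.6% of probes on the NOD side and 39.3% to 60.4% on the pool side. The weakest NOD signals were those of 20 weeks replicates 5 (42.3%) and 6 (47.6%). The weakest pool was that of 12 weeks (39.3% to 43.6%). Intensities of different probes are not on a common scale, so no gene's level is set against another's.

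None of the 8 genes was called by limma at 10 days (3.98% of all genes were called at that age), and 3 had an unadjusted p under 0.05. At 4 weeks 3 were called (all genes: 2.79%), of which Penk and Vip were higher in NOD islets (all genes: 1.91% higher) and Pdyn was lower (0.88% lower). At 12 weeks Npy and Gal were called, both lower (all genes: 3.51% called and 1.42% lower). At 20 weeks 4 were called (all genes: 5.1%), with Penk and Vip higher (3.87%) and Npy and Pdyn lower (1.23%). The split over all genes depended on the scaling: of the genes called at the 4 ages 40.6%, 68.5%, 59.5% and 75.8% were higher, and with median centring of the arrays 98.1%, 17.3%, 99.3% and 24.8% were. The median ratio of the 8 genes was -0.22, 0.21, -0.05 and 0.14 at the successive ages, against 0.01, -0.01, 0.03 and -0.004 for all genes. Cartpt, Nts and Adcyap1 were not called at any age or between any ages. By the moderated F test over the 4 ages, which has no fold floor, 5 of the 8 genes differed among ages (adjusted p 8.53e-07 for Penk, 2.78e-06 for Pdyn, 4.76e-06 for Npy, 0.0398 for Nts and 0.0449 for Gal). That is not a larger share than the 76% of all genes that passed it.

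**Figure D1:**
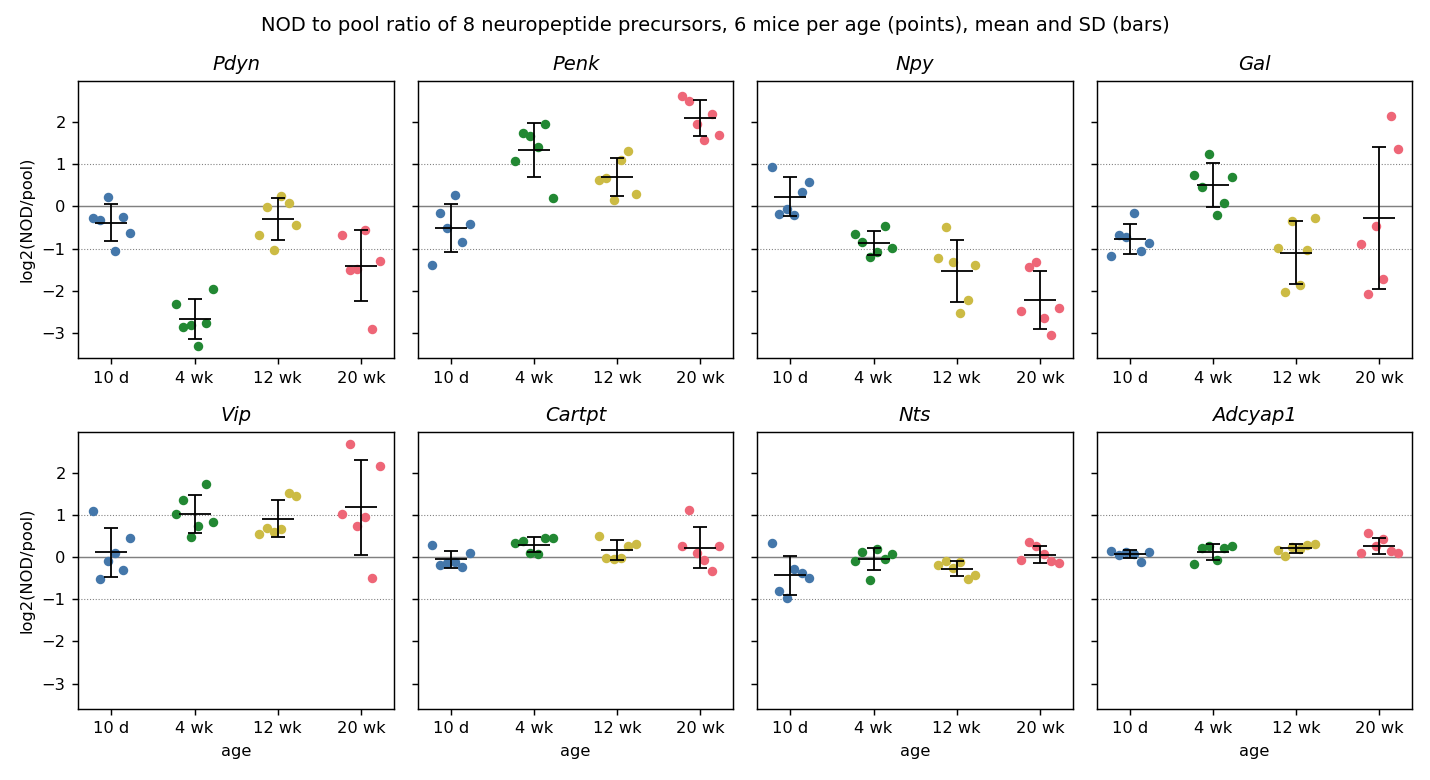
Log2 ratio of NOD islets to the age-matched NOD.B10 pool (y axis) at 4 ages (x axis) for the 8 genes. Points are mice (6 per age), bars are mean and SD, and dotted lines mark a 2-fold change. Penk lay above 0 in all mice from 4 weeks on and Npy lay below 0 in all of them, while Pdyn was lowest at 4 weeks, between -3.30 and -1.95.

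Pdyn, which encodes the precursor of the dynorphins and neoendorphins, was 6.35-fold lower in NOD islets than in the pool at 4 weeks and 2.65-fold lower at 20 weeks. At 10 days its ratios ran from -1.06 to 0.23 (median -0.30) and at 12 weeks from -1.02 to 0.25 (median -0.22). At 4 weeks they ran from -3.30 to -1.95 (median -2.80), and at 20 weeks from -2.91 to -0.57 (median -1.39). All 6 mice were below 0 at 4 and at 20 weeks, and at 10 days and 12 weeks mice lay on both sides of 0. The mean ratio was -0.39 ± 0.43 at 10 days, -2.67 ± 0.47 at 4 weeks (adjusted p = 1.01e-08), -0.30 ± 0.49 at 12 weeks and -1.40 ± 0.84 at 20 weeks (adjusted p = 1.95e-05). The lowest 20 week value belonged to replicate 5, the mouse with the weakest NOD signal.

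The Pdyn ratio did not move in 1 direction with age. It fell by 2.28 from 10 days to 4 weeks (SE 0.32, adjusted p = 5.38e-06), rose by 2.37 from 4 to 12 weeks (SE 0.32, adjusted p = 1.5e-05) and fell by 1.11 from 12 to 20 weeks (SE 0.32, adjusted p = 0.0128). The 4 week mice did not overlap with those of 10 days or of 12 weeks. Both channels moved. Pdyn rose 4.03-fold in the NOD channel from 10 days to 4 weeks (adjusted p = 5.21e-05) and 2.41-fold from 4 to 12 weeks (adjusted p = 0.00276), with a mean log2 intensity of 9.83 ± 0.40, 11.84 ± 0.46, 13.11 ± 0.42 and 12.73 ± 0.81 at the 4 ages. The pool, taken to have no replicate at an age, stood at 10.21, 14.51, 13.41 and 14.13, so its 4 week level was 19.6-fold its 10 day level. The low ratio at 4 weeks thus went with a pool level that was already high when that of NOD islets was not yet at its 12 week value.

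The fall of the Pdyn ratio from 12 to 20 weeks was the least firm of these. It was -0.81 without 20 weeks replicate 5 and -0.996 without 12 weeks replicate 4, under the 2-fold floor in both cases, and -0.92 with the slide as a block (adjusted p = 0.423), which is also the difference within the slide that held 2 mice of each age. Without both 20 week mice of weak NOD signal it was -0.76 (adjusted p = 0.051), and with median centring -2.92. The difference between 20 weeks and 10 days (-1.02) was under the floor without 10 days replicate 1, 3 or 5 (-0.997, -0.896 and -0.992) or 20 weeks replicate 5 (-0.72), was -0.67 without both weak mice (adjusted p = 0.0541) and was -2.44 with median centring. The rise of 1.26 from 4 to 20 weeks was lost with median centring (0.88, adjusted p = 0.287), under which that from 4 to 12 weeks was 3.80. That scaling also put the Pdyn ratio above 0 at 10 days (0.38, adjusted p = 0.319) and at 12 weeks (0.86, adjusted p = 0.026). Neither was called, and the median over all genes was then 0.50 at 12 weeks.

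Penk, the precursor of the enkephalins, moved the other way. It was 2.53-fold higher in NOD islets at 4 weeks and 4.25-fold higher at 20 weeks. Its ratios ran from -1.38 to 0.27 at 10 days (median -0.47), from 0.20 to 1.96 at 4 weeks (median 1.53), from 0.15 to 1.33 at 12 weeks (median 0.65) and from 1.57 to 2.61 at 20 weeks (median 2.08). Every mouse of 4, 12 and 20 weeks lay above 0, and 5 of the 6 mice of 10 days lay below it. The mean was -0.51 ± 0.57 at 10 days (adjusted p = 0.0423, under the fold floor), 1.34 ± 0.63 at 4 weeks (adjusted p = 1.51e-05), 0.70 ± 0.45 at 12 weeks (adjusted p = 0.00952, also under the floor) and 2.09 ± 0.43 at 20 weeks (adjusted p = 3.32e-08).

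From 10 days to 20 weeks the Penk ratio rose by 2.59 (SE 0.29, adjusted p = 1.46e-07), and the mice of these ages did not overlap. It rose by 1.85 from 10 days to 4 weeks (SE 0.29, adjusted p = 2.11e-05), where 1 mouse of 4 weeks overlapped with those of 10 days, and by 1.39 from 12 to 20 weeks (SE 0.29, adjusted p = 0.00132), with no overlap. Its level in the NOD channel was 10.19 ± 0.60, 9.33 ± 0.64, 9.70 ± 0.44 and 9.89 ± 0.41 on the log2 scale, and no difference between ages was called there. The pool stood between 10.65 and 10.79 on the 6 arrays of 10 days and at 7.99, 9.0 and 7.8 on average at the later ages, which is 6.55-fold lower at 4 weeks than at 10 days and 7.43-fold lower at 20 weeks. The higher ratios of 4 and 20 weeks therefore went with a lower level in the NOD.B10 pools and not with a called rise in the NOD islets. From 10 days to 4 weeks the NOD level of Penk was called lower with the scanner's signals (-1.06, adjusted p = 0.022) and without 10 days replicate 1 (-1.04, adjusted p = 0.0107). With median centring of the arrays in place of loess the step from 12 to 20 weeks was -0.11 (adjusted p = 0.837), against a median of -0.78 over all genes under that scaling, that from 10 days to 4 weeks was 0.73 (adjusted p = 0.142) and that from 10 days to 20 weeks was 1.32 (adjusted p = 0.0108), while the 12 week Penk ratio was then called (1.71).

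**Figure D2:**
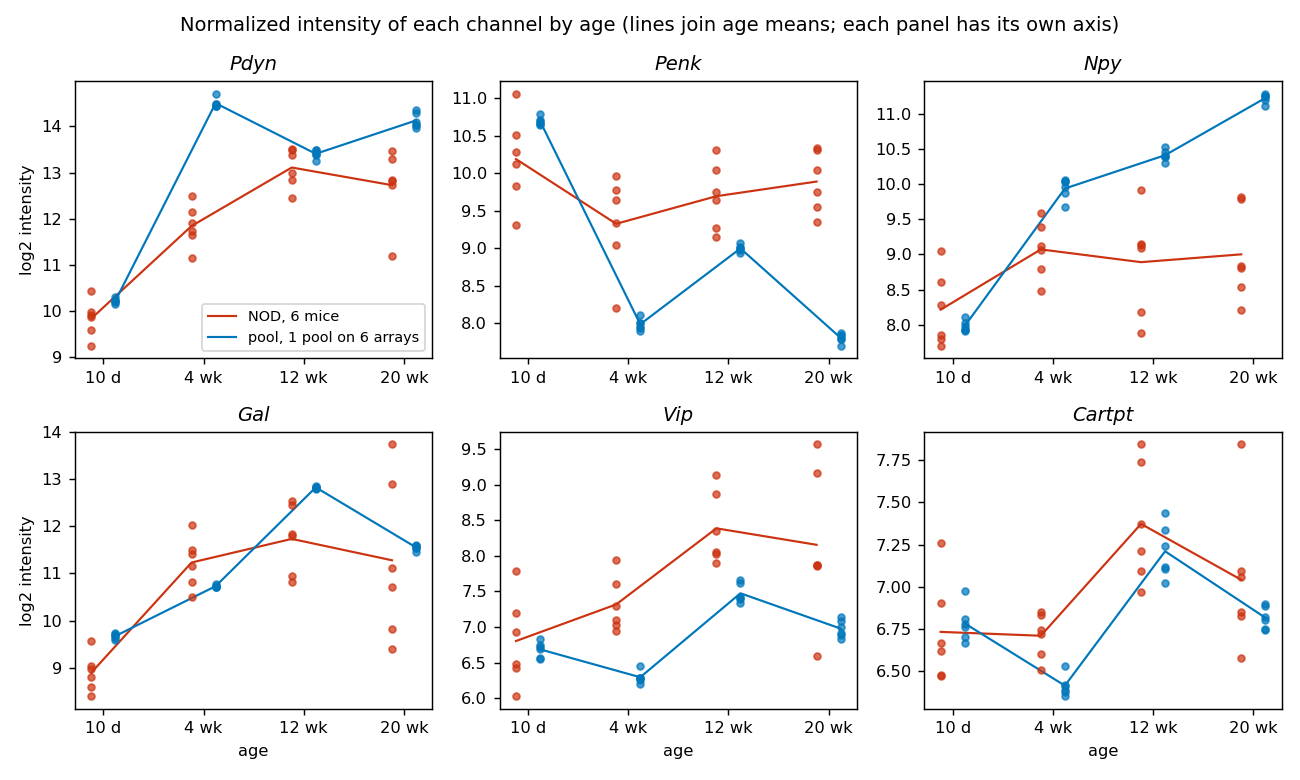
Log2 intensity after loess and Aquantile normalization (y axis, its own range in each panel) by age (x axis) for 6 genes. Red points are 6 NOD mice, blue points are the pool channel of the same arrays (taken to be 1 pool per age), and lines join the means. Npy stood between 8.22 and 9.07 in NOD islets while the pool went from 7.98 to 11.22, and the pool of Penk was lowest at 20 weeks (7.8).

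The dimmer Penk probe, whose repeat is shown above, gave ratios of the same sign as the brighter one in 22 of 24 mice (r = 0.87 over 24 mice, which share their arrays and pools). Its ratios were smaller, with means of 0.06 ± 0.39, 0.48 ± 0.29, 0.21 ± 0.18 and 0.85 ± 0.36 at the 4 ages, and it was not called at any age. At 4 and 20 weeks it missed the fold floor alone (adjusted p = 0.0026 and 6.11e-06 in the limma fit over all kept probes). At 12 weeks the pool was not well above background for this probe on any of the 6 arrays. The measured ratio there was 1.16-fold higher in NOD islets. It did not pass the limma fit over all kept probes (adjusted p = 0.189) and rests on an undetected pool. The size of the Penk difference thus depended on the probe, and its sign after 10 days did not.

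**Figure D3:**
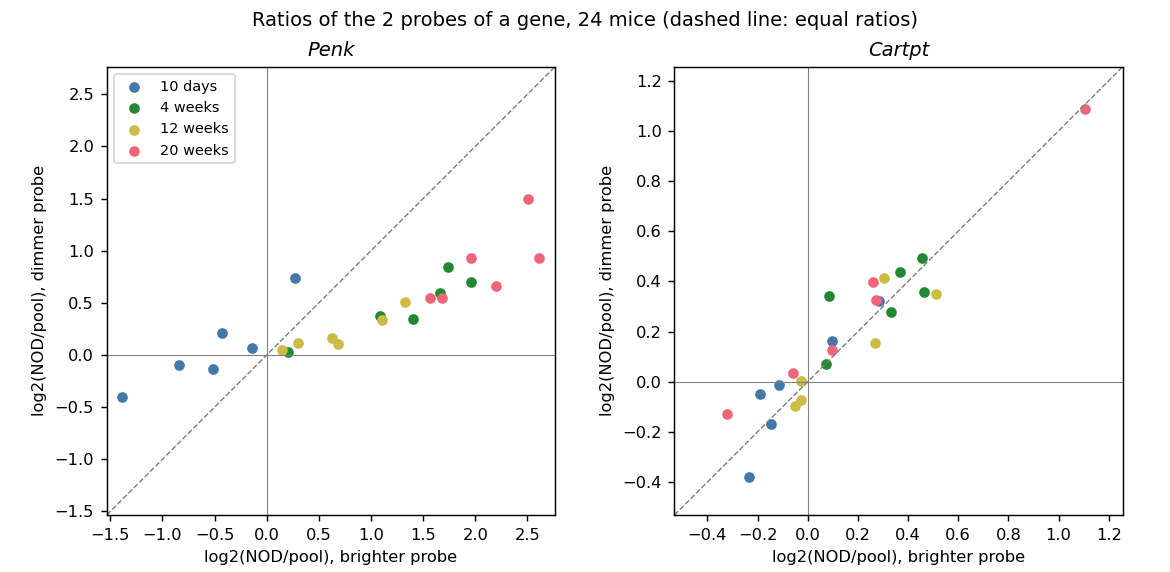
Log2(NOD/pool) of the dimmer probe (y axis) against the brighter probe (x axis) of Penk and of Cartpt in 24 mice, coloured by age, with a dashed line where both are equal. The Penk points lie on a shallower slope than the line, and those of Cartpt, whose probes overlap, lie close to it (r = 0.94).

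Npy encodes the precursor of neuropeptide Y, a peptide of sympathetic nerves that is also made by islet cells, above all early in life. It was 2.87-fold lower in NOD islets than in the pool at 12 weeks and 4.66-fold lower at 20 weeks. Ratios ran from -0.21 to 0.94 at 10 days (median 0.13), from -1.19 to -0.46 at 4 weeks (median -0.90), from -2.51 to -0.48 at 12 weeks (median -1.35) and from -3.04 to -1.32 at 20 weeks (median -2.44). At 10 days 3 mice were above 0 and 3 below, and all 18 older mice were below 0. The mean was 0.23 ± 0.47 at 10 days, -0.86 ± 0.28 at 4 weeks (adjusted p = 0.00246, under the fold floor), -1.52 ± 0.73 at 12 weeks (adjusted p = 1.08e-05) and -2.22 ± 0.69 at 20 weeks (adjusted p = 4.11e-08).

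The Npy ratio fell by 1.10 from 10 days to 4 weeks (SE 0.31, adjusted p = 0.00554) and fell by 2.45 from 10 days to 20 weeks (SE 0.31, adjusted p = 8.62e-07), with no overlap between the mice in either comparison. The steps from 4 to 12 weeks (-0.65) and from 12 to 20 weeks (-0.70) were not called, whereas the difference between 20 and 4 weeks was -1.36 (adjusted p = 0.00256). In the NOD channel no difference between ages was called: the level was 8.22 ± 0.53, 9.07 ± 0.40, 8.89 ± 0.74 and 9.0 ± 0.66. The pool stood at 7.98, 9.94, 10.41 and 11.22, so that the 20 week pool was 9.44-fold above the 10 day pool. In NOD islets Npy was 1.81-fold higher at 4 weeks than at 10 days (adjusted p = 0.0546). That rise was called with the scanner's signals (1.04, adjusted p = 0.0448) and without 10 days replicate 1 (1.02, adjusted p = 0.0273), as was the rise from 10 days to 20 weeks without both weak mice (1.02, adjusted p = 0.032). Without 10 days replicate 1 the change from 10 days to 4 weeks was -0.96, under the fold floor. With median centring the 12 week ratio was -0.48 (adjusted p = 0.256), against a median of 0.50 over all genes. The differences between 12 weeks and 10 days (-1.41, adjusted p = 0.0713) and between 20 and 4 weeks (-1.56, adjusted p = 0.0681) were lost as well. Those of 4 weeks and 20 weeks against 10 days were -2.16 and -3.72, and the step from 12 to 20 weeks was called (-2.30, adjusted p = 0.000678). The 4 week Npy ratio was then called too (-1.23, adjusted p = 0.0167). Its step from 4 to 12 weeks was 0.74 under that scaling (adjusted p = 0.21), against a median of 0.73 over all genes.

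Gal encodes the precursor of galanin, a peptide of sympathetic nerves. Its ratio was called at 12 weeks alone, where it was 2.14-fold lower in NOD islets. Ratios ran from -1.19 to -0.16 at 10 days (median -0.80), from -0.21 to 1.25 at 4 weeks (median 0.58), from -2.04 to -0.28 at 12 weeks (median -1.02) and from -2.07 to 2.15 at 20 weeks (median -0.68). All mice of 10 days and 12 weeks were below 0, and 5 of 6 mice of 4 weeks were above it. The means were -0.78 ± 0.36, 0.50 ± 0.52, -1.09 ± 0.74 (adjusted p = 0.0248) and -0.27 ± 1.69.

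At 20 weeks the 6 mice fell into separate positions: replicates 5 and 6 had Gal ratios of 2.15 and 1.36, and the other 4 lay between -2.07 and -0.46. These are the mice with the weakest NOD signal. They also had the highest mean ratios of 8 acinar markers (2.08 and 1.45) and the lowest of 9 beta cell markers (-3.23 and -1.65), and the part of these in the Gal values was not tested. Without both, the 20 week ratio was -1.29 (adjusted p = 0.000677).

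The Gal ratio rose by 1.28 from 10 days to 4 weeks (SE 0.53, adjusted p = 0.0481) and fell by 1.60 from 4 to 12 weeks (SE 0.53, adjusted p = 0.0202), the latter with no overlap. In the NOD channel Gal rose 5.06-fold from 10 days to 4 weeks (adjusted p = 0.0026) and stood 7.16-fold above 10 days at 12 weeks (adjusted p = 0.000345), with levels of 8.89 ± 0.41, 11.23 ± 0.54, 11.73 ± 0.72 and 11.28 ± 1.72. The pool was at 9.67, 10.73, 12.83 and 11.55. The mean Gal level thus stood higher after 10 days in the NOD mice and in the pools, which were not tested. The 12 week pool was the highest of the 4. From 10 days to 20 weeks the rise in the NOD channel was 2.39, and 1.37 without both 20 week mice of weak NOD signal (adjusted p = 0.00756). The Gal calls were close to the threshold. That of 12 weeks was lost without 12 weeks replicate 2, 4 or 5 (adjusted p from 0.0511 to 0.0912) and turned to 0.04 with median centring (adjusted p = 0.912). That of 4 weeks against 10 days was lost when any of 14 of the 24 mice was left out (10 days replicates 1, 2, 3, 5 and 6, 4 weeks replicates 1, 2, 3 and 6, 12 weeks replicates 1, 3 and 5, and 20 weeks replicates 1 and 3), with adjusted p from 0.0505 to 0.102, and with median centring, as was the fall from 4 to 12 weeks (-0.12).

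Vip encodes the precursor of VIP, a peptide of parasympathetic nerves. It was higher in NOD islets, 2.03-fold at 4 weeks and 2.26-fold at 20 weeks. Ratios ran from -0.53 to 1.08 at 10 days, from 0.49 to 1.74 at 4 weeks (median 0.92), from 0.55 to 1.51 at 12 weeks (median 0.68) and from -0.49 to 2.67 at 20 weeks (median 0.99). All 12 mice of 4 and 12 weeks were above 0, as were 5 of the 6 mice of 20 weeks. The exception was 20 weeks replicate 5, and replicates 2 and 6 were the highest (2.67 and 2.16). The means were 0.12 ± 0.58, 1.02 ± 0.45 (adjusted p = 0.00338), 0.91 ± 0.44 (adjusted p = 0.0108, under the fold floor) and 1.18 ± 1.12 (adjusted p = 0.000997).

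Between ages the Vip ratio was called once, 1.06 higher at 20 weeks than at 10 days (SE 0.38, adjusted p = 0.0237), and the mice overlapped. Vip rose 2.1-fold in the NOD channel from 4 to 12 weeks (adjusted p = 0.0361) and was 2.99-fold higher at 12 weeks than at 10 days (adjusted p = 0.00275), with levels of 6.81 ± 0.63, 7.32 ± 0.38, 8.39 ± 0.50 and 8.16 ± 1.07. The pool stood at 6.69, 6.30, 7.48 and 6.98. The NOD channel call from 4 to 12 weeks was lost without any 1 of 7 mice (4 weeks replicates 1, 3, 4 and 6 and 12 weeks replicates 2, 5 and 6, adjusted p from 0.0546 to 0.0851) and with the scanner's own signals (1.51, adjusted p = 0.147). Both calls of the ratio at an age rested on a small margin over 2-fold: without 4 weeks replicate 5 or 2 that of 4 weeks was 0.88 or 0.96, and without 20 weeks replicate 2 or 6 that of 20 weeks was 0.88 or 0.98. The 20 week call and that of 20 weeks against 10 days were also lost with the scanner's own signals (adjusted p = 0.0592 and 0.0712) and with median centring, and the latter without 10 days replicates 2 or 5 or 20 weeks replicates 2 or 6. The 4 week call was lost with median centring too (0.90, adjusted p = 0.0582). The 12 week Vip ratio, in turn, was called with no background correction (1.28, adjusted p = 0.00131), with median centring (1.66, adjusted p = 0.000489) and with the scanner's signals (1.94, adjusted p = 0.00501), and the rise from 10 days to 4 weeks was called with the scanner's signals (2.35, adjusted p = 0.0167), with no background correction (1.14, adjusted p = 0.0309) and without 10 days replicate 1 or 4 weeks replicate 3.

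Cartpt encodes the precursor of CART, a peptide of islet nerves and endocrine cells. Its means were -0.05 ± 0.20, 0.30 ± 0.18, 0.16 ± 0.23 and 0.22 ± 0.48, all within a 2-fold change. All 6 mice of 4 weeks lay above 0, between 0.07 and 0.46. At 20 weeks replicate 2 stood at 1.10, and the others between -0.32 and 0.27. The overlapping second probe gave -0.02, 0.33, 0.12 and 0.31. Cartpt was 0.66 higher in the NOD channel at 12 than at 4 weeks (adjusted p = 0.0076, under the fold floor), and the pool was 0.80 higher. With the scanner's signals the Cartpt ratio rose by 1.10 from 10 days to 4 weeks (adjusted p = 0.0156), and its NOD level rose by 1.41 from 4 to 12 weeks (adjusted p = 0.00766), both called.

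Nts encodes the precursor of neurotensin. Its ratio was -0.43 ± 0.46 at 10 days (adjusted p = 0.00347, under the fold floor, with 5 of 6 mice below 0), -0.05 ± 0.26 at 4 weeks, -0.27 ± 0.17 at 12 weeks (all 6 mice below 0) and 0.06 ± 0.20 at 20 weeks. Its probe was dim in NOD islets, well above background on 5, 5, 4 and 3 of the 6 arrays at the successive ages, and on all 24 arrays in the pool channel. With the scanner's own signals, which subtract background without an offset, the 12 week ratio was -2.40 (adjusted p = 0.00022), and its differences from 4 weeks (-1.87) and from 20 weeks (1.89 for 20 minus 12 weeks) were called.

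Adcyap1, the PACAP gene, was at the limit of detection. The pool was not well above background on any array, and the NOD channel was so on 2, 2, 4 and 1 of the 6 arrays at the successive ages. No fold is given for this gene, since most signals of both channels were not well above background. The measured means were 0.07 ± 0.09, 0.12 ± 0.19, 0.20 ± 0.10 (adjusted p = 0.0131) and 0.27 ± 0.19 (adjusted p = 0.0012), all under the fold floor. With the scanner's own signals the Adcyap1 ratios were 1.05, 1.69 and 1.36 from 4 weeks on and were called, from the same undetected pool.

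Between ages, 16 of the 48 differences of the 8 genes were called. From 10 days to 4 weeks 4 genes were called (all genes: 9.01%), and the mice of 2 genes did not overlap (all genes: 26.7%). From 4 to 12 weeks it was 2 genes (6.05%), 2 of them without overlap (25.3%), and from 12 to 20 weeks 2 genes (2.41%), 1 without overlap (12.3%). From 10 days to 12 weeks it was 2 genes (8.72%), 1 without overlap (25.1%). From 4 to 20 weeks it was 2 (4.81%), 1 without overlap (9.25%), and from 10 days to 20 weeks 4 (12.5%), 2 without overlap (26%). The NOD channel, normalized together with the pool channel, gave 2 genes that rose from 10 days to 4 weeks (all genes: 1.84%), 2 from 4 to 12 weeks (4.3%), 3 from 10 days to 12 weeks (3.73%) and 3 from 10 days to 20 weeks (3.38%), all of them among Pdyn, Gal and Vip. By limma none was called from 12 to 20 weeks (all genes: 0.354%) or from 4 to 20 weeks (5.37%), where 0 and 2 had an unadjusted p under 0.05.

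Ages were partly tied to slides, of which there were 6. Slide 2 held 2 mice each of 10 days and 4 weeks, and slide 5 held 2 each of 12 and 20 weeks. Within slide 2 the differences between 4 weeks and 10 days were -1.20 for Npy, -2.13 for Pdyn, 2.05 for Penk and 1.57 for Gal, each with the sign and the call of the whole comparison (adjusted p from 0.00804 to 0.033 with slide as a block). Within slide 5 the Penk difference between 20 and 12 weeks was 1.75 (adjusted p = 0.0406). In that slide the Pdyn difference was not called, that of Npy was -0.16 (-0.70 over all mice), and that of Gal was -0.82 (0.82 over all mice), and neither was called. No slide held any other pair of ages, so slide and age cannot be told apart there.

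Across mice the ratios of Vip and Cartpt moved together (r = 0.83 over 24 mice, and 0.81 over deviations from the age means). The mice share pools within an age and each pair of values shares an array. In 20 weeks replicate 2 both genes had their highest ratio, and in 20 weeks replicate 5 Cartpt had its lowest. Npy and Penk ran opposite to each other over the 24 mice (r = -0.74) but less so within ages (-0.28), and Pdyn and Gal had r = -0.70, or -0.54 within ages. The other pairs lay between -0.52 and 0.50.

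**Figure D4:**
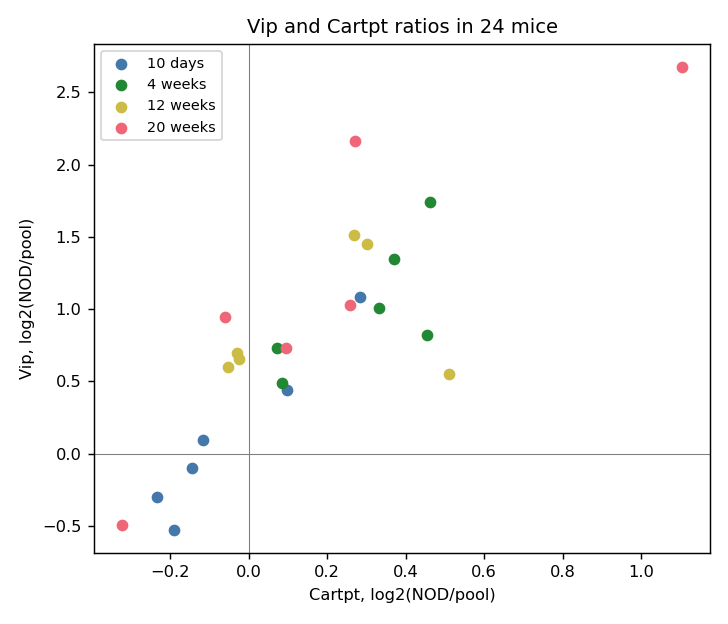
Log2(NOD/pool) of Vip (y axis) against that of Cartpt (x axis) in 24 mice, coloured by age. The highest point on both axes is 20 weeks replicate 2 (1.10 and 2.67), and both genes spread along 1 diagonal within as well as between ages.

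Among all genes, those whose 24 ratios were most like those of Npy were Hadh (r = 0.94), Ociad2 (0.94) and Tmigd3 (0.94). For Pdyn they were Rb1 (0.93), Pitpnm1 (0.92) and Galnt12 (0.91), for Penk Prelid2 (0.92), Rap2c (0.91) and Btf3 (0.91), and for Gal Urah (0.94), Psme3 (0.94) and Dnajc3 (0.94). For Vip they were Nefl (0.88), Nos1 (0.85) and Tub (0.85), and Nefl was also second for Cartpt (0.74), between Grp (0.75) and Cplx1 (0.72). Nefl encodes the light neurofilament chain and Nos1 the neuronal nitric oxide synthase. For Nts they were Map3k6 (0.81), Crispld2 (0.78) and Foxc2 (0.77), and for Adcyap1 Itgbl1, Ska3 and Depdc1a (each 0.75). These values describe 24 mice that share 4 pools, and were the highest of all 18071 genes by construction.

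Receptors of these peptides were mostly dim. Of 18 on the array, 9 passed the filter on low values. None of the neuropeptide Y receptors (Npy1r, Npy2r, Npy4r, Npy5r and Npy6r) or of the opioid receptors (Oprk1, Oprd1 and Oprm1) did. Ntsr1, a neurotensin receptor, was the only one called at an age, 1.48 ± 0.41 at 4 weeks (adjusted p = 4.79e-05), and its ratio fell by 1.44 from 4 to 12 weeks (adjusted p = 0.00287). Vipr2, a receptor for VIP and PACAP, had ratios of -0.88 ± 0.29, 0.97 ± 0.65, 0.13 ± 0.42 and 0.40 ± 1.03. It rose by 1.85 from 10 days to 4 weeks (SE 0.36, adjusted p = 0.000214). Vipr1 stood between -0.27 and 0.10 at all ages, Galr1 between -0.29 and 0.16, Galr3 between -0.35 and 0.05 and Adcyap1r1 between -0.24 and 0.44. The median over the 9 receptors was 0.07, 0.01, -0.03 and -0.09.

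Proteins that process and store these precursors were measured as well. Of 17 convertase, amidation and granule genes, 13 were higher in NOD islets at 10 days (median 1.54, all genes 0.01), 3 were lower at 4 weeks (median -0.72), none passed at 12 weeks (limma; 4 at an unadjusted p under 0.05, median -0.25) and 8 were lower at 20 weeks (median -0.94). At 10 days, when no neuropeptide gene was called, Scg2, Chga and Scg5, which serve the granule, stood at 2.28, 2.20 and 2.18. At 20 weeks Sytl4, Pcsk1n and Scg3 stood at -1.58, -1.55 and -1.49. Pcsk2, the convertase PC2, went from 1.54 at 10 days to -1.11 at 20 weeks. Of 10 peptidases that degrade neuropeptides, 1 was called at 10 days (Anpep, -1.48), none at 4 weeks (9 at an unadjusted p under 0.05), 1 at 12 weeks (Dpp3, 1.11) and 1 at 20 weeks (Ece1, -1.14).

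Other neuropeptide precursors were seldom called. Of 37 listed, 18 passed the filter. Ucn3, the urocortin 3 gene of mature beta cells, was 1.19 at 10 days, -1.21 at 12 weeks and -1.47 at 20 weeks, and Grp was -1.16 at 10 days; no others were called at any age. The medians of the 18 lay between -0.03 and 0.12. Of 8 islet hormone genes, 6 were higher at 10 days (Ppy 3.20, Pyy 2.28 and Gcg 2.21 the most), 1 was higher and 1 lower at 4 weeks (Gast 1.33 and Ins1 -1.49), and 2 were lower at 12 and at 20 weeks (Ins1 and Ins2). Of 18 genes that respond to cyclic AMP, 1 was higher and 5 lower at 10 days, 1 and 4 at 4 weeks, 2 and 1 at 12 weeks and 2 and 0 at 20 weeks. Sik1 was the highest at 20 weeks (1.99) and Egr1 the lowest at 10 days (-1.75).

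Markers of the cells that could hold these transcripts moved as well, and their part in the neuropeptide ratios was not tested. All 9 beta cell markers were measured: 6 were higher at 10 days (mean over the list between 0.45 and 1.83 in the 6 mice), 3 lower at 4 weeks (-1.29 to -0.58), 4 lower at 12 weeks (-1.45 to -0.14) and 9 lower at 20 weeks (-3.23 to -0.70). In bulk islet RNA, fewer cells of a type and less RNA per cell cannot be told apart. The Npy ratio was lowest at 20 weeks, when all 9 beta cell markers were lower, while Penk and Vip were higher at that age. Pdyn was lower then too (-1.40), but its lowest mean was at 4 weeks (-2.67), when 3 of the 9 were called lower. Of 7 alpha, delta and PP cell markers, 4 were higher at 10 days (0.52 to 1.77) and none was called later by limma, with 4, 2 and 2 at an unadjusted p under 0.05.

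Of 12 neuron and nerve fibre markers 9 were measured, and Elavl4 (1.01 at 10 days) was the only one called at an age, while 6 of the 9 had an unadjusted p under 0.05 at 4 weeks, 4 at 12 weeks and 7 at 20 weeks. Members of this list went both ways. The mean over that list ran from -0.27 to 0.93 at 10 days, -0.29 to 0.33 at 4 weeks, -0.08 to 0.16 at 12 weeks and -0.93 to 0.27 at 20 weeks. Dbh and Slc18a3, which serve transmitter synthesis and storage in autonomic neurons, did not pass the filter. Th stood at 0.63, -0.49, -0.33 and -0.45, and Prph, a filament protein of peripheral neurons, at 0.18, 0.93, 0.34 and 0.48. Of 6 Schwann cell markers measured, Ngfr was called at 12 weeks (1.73) and 20 weeks (1.34). All 8 acinar markers were higher at 4 weeks (1.09 to 1.82 in the 6 mice) and by limma none at 12 or 20 weeks (1 and 0 at an unadjusted p under 0.05), where single mice ran from -1.13 to 0.93 and from -2.39 to 2.08. Of 8 T cell markers, 6 were higher at 12 weeks (1.51 to 2.40) and 6 at 20 weeks (1.66 to 2.94), and of 5 B cell markers 4 were higher at each of these ages. Of 7 stellate cell and fibroblast markers, 6 were lower at 10 days and 2 and 4 were higher at 12 and 20 weeks.

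**Figure D5:**
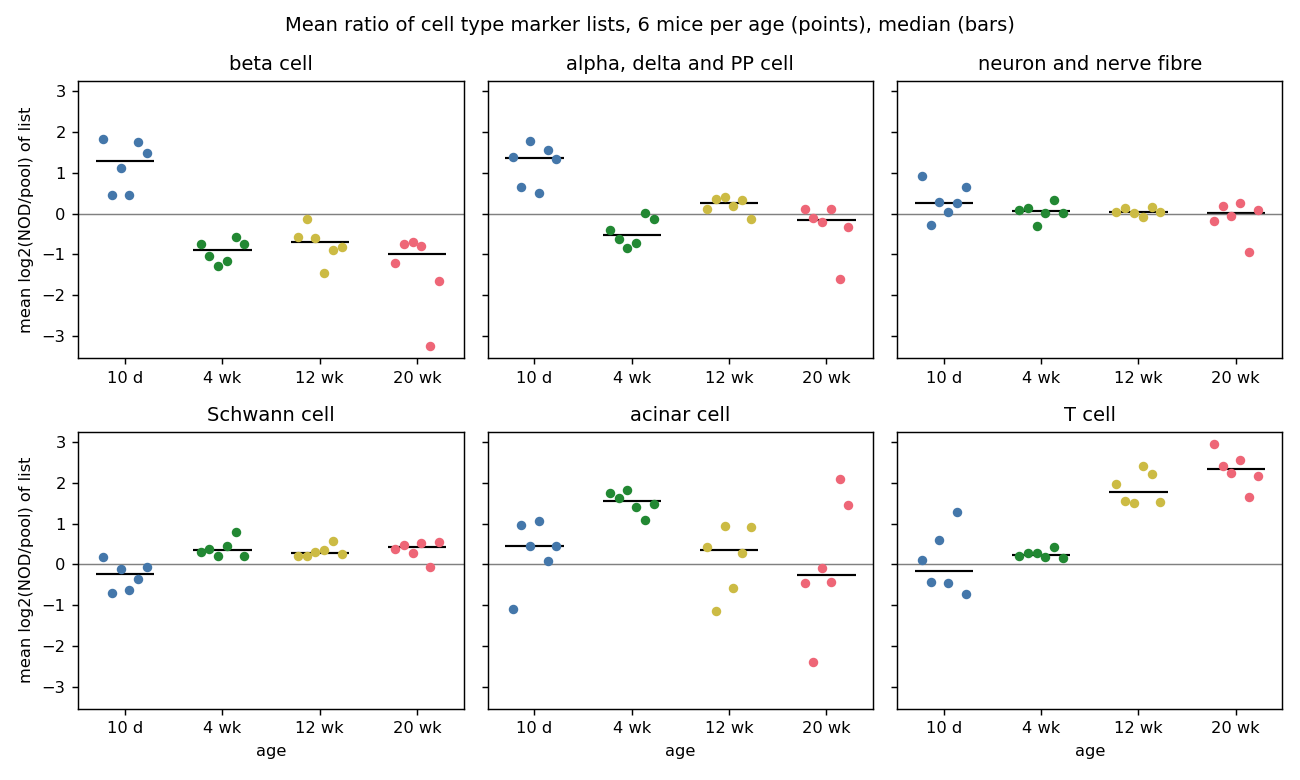
Mean log2(NOD/pool) over each marker list (y axis) by age (x axis) for 6 cell types. Points are 6 mice per age and bars are medians. Beta cell markers lay between 0.45 and 1.83 at 10 days and below 0 in all older mice, the nerve marker means lay between -0.93 and 0.93, and the 20 week mice with the highest acinar means were replicates 5 and 6.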

How the data were processed

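Islet RNA of 24 single NOD mice was measured against pools of 6 NOD.B10 mice, taken to be 1 pool per age, on Agilent 4×44K arrays (design 014868), from 300 ng of labelled RNA. Feature Extraction 10.7.3.1 wrote the authors' scanner files on build mm9, per the file headers, with the mean and background intensity of each channel for 45018 spots (1639 controls). The LogRatio column is a log10 value, per the file headers. Log2 ratios of 22088 noncontrol probes were deposited as well. That set equals the scanner's ratio turned to log2 (r of at least 0.9998), is not centred on the median, and does not list Adcyap1.

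From these, normexp with an offset of 50, loess within arrays and a limma fit of a mean per age were computed (R 4.3.3, limma 3.58.1, statmod 1.5.0). Outlier spots were set to missing (44 ratios of tested genes). The brightest probe represented a gene. Symbols came from RefSeq accessions for 27050 probes, and from the symbol, an older symbol or the file's name alone for 4154, 589 and 9381. The NOD channel was tested after loess within arrays and Aquantile normalization between arrays. Both steps use the pool channel of the same array, so these NOD levels are not independent of the pool. The pool channel was not tested. All arrays had 1 scan day. The number of arrays limits the precision.

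The genes, their lists and the tests were chosen with earlier results of these data known. Named in the text are all 8 members, kept receptors of called members, up to 3 called genes per other list and age with the largest change, and the 3 genes most like each member; Th, Prph, Dbh and Slc18a3 and the 12 week values of Ucn3, as well as the other receptors, were named after their values were seen. Same-numbered mice of different ages were not treated as paired, and the labels do not say whether they are. The correlation of their deviations ranged from -0.42 to 0.63 over 36 pairs (median -0.10). Over 180 pairs of different number it ranged from -0.63 to 0.66 (median -0.007). Such ranges cannot decide whether mice were paired. Alternatives covered background correction, normalization, starting values, filters, probe choice, flags, variance moderation, slide, a replicate block and leaving out mice. The steps were tested on simulated data.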

Additional observations from a re-analysis of the deposited data

Results flagged for a closer look

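Differences between ages that passed the test are flagged because 2 ages have different ratios under the same contrast of NOD against pool, by the limma contrast itself. Of the 48 differences of the 8 genes, 16 passed. For Npy they were -1.10 (4 weeks minus 10 days), -1.75 (12 weeks minus 10 days), -1.36 (20 minus 4 weeks) and -2.45 (20 weeks minus 10 days). For Pdyn they were -2.28 (4 weeks minus 10 days), 2.37 (12 minus 4 weeks), -1.11 (20 minus 12 weeks), 1.26 (20 minus 4 weeks) and -1.02 (20 weeks minus 10 days). For Penk they were 1.85 (4 weeks minus 10 days), 1.39 (20 minus 12 weeks), 1.2 (12 weeks minus 10 days) and 2.59 (20 weeks minus 10 days). For Gal they were 1.28 (4 weeks minus 10 days) and -1.60 (12 minus 4 weeks), and for Vip 1.06 (20 weeks minus 10 days).

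One mouse stood apart from the others of its age in 1 gene. In 10 days replicate 5 the Adcyap1 ratio was -0.106, while the other 5 mice of that age were above 0. At that age the probe was well above background on 2 of 6 arrays in the NOD channel and on 0 of 6 in the pool channel, so this value is mostly a ratio of undetected signals. The gap to its neighbour was larger than Dixon's critical value of 0.625 of the range allows. Chance flags about 1 in 20 groups, and 1 of the 32 groups of a gene and an age was flagged.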

How the results depend on the processing

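Of the 25 calls of the 8 genes, all 25 held with no background correction, with outlier spots kept, with a filter of 12 arrays, with every probe tested, with trended robust moderation and with slide as a random block (correlation -0.09); 24 held with no filter, 23 with the scanner's processed signals and with the deposited table, and 23 without both 20 week mice of weak NOD signal. Median centring mattered most: 13 held, 10 were lost and 2 turned (Gal at 12 weeks, 0.043, and Penk from 12 to 20 weeks, -0.11). That scaling moved the median of all genes to 0.38, -0.15, 0.50 and -0.21 at the 4 ages and to -0.60, 0.73, -0.78 and -0.64 for 4 weeks minus 10 days, 12 minus 4, 20 minus 12 and 20 weeks minus 10 days. Relative to that median all 25 calls kept their sign (Gal -0.46, Penk 0.67). The cause was not tested. Counts of called members that moved by more than 1.5 times were, with median centring, 2 from 10 days to 4 weeks (all genes: 5905 called) and 1 from 4 to 12 weeks (7103). From 10 days to 12 weeks the count was 1 (all genes: within 1.5 times of 1576 in the main fit). From 4 to 20 weeks it was 0 by limma (all genes: within 1.5 times of 870), and 2 had an unadjusted p under 0.05. With the scanner's signals the member counts were 5 at 12 weeks (all genes: 3251, against 635 in the main fit) and 4 from 10 days to 12 weeks (4720, against 1576). With the deposited log2 ratios the 12 week count was 4 (all genes: 2648). Smaller moves with the scanner's signals included 6 from 10 days to 4 weeks (all genes: 4547), 3 from 4 to 12 weeks (4354), 3 from 12 to 20 weeks (2548) and 4 at 4 weeks (2122). With median centring they were 3 at 20 weeks (all genes: 1824) and 3 from 10 days to 20 weeks (7069). The F test called 3 with no filter (all genes: within 1.5 times of 13734 in the main fit). From 12 to 20 weeks 1 was called without both weak mice (all genes: within 1.5 times of 436 in the main fit). With slide as a fixed block, an alternative added after the data were seen, 1 was called as well (all genes: 194). In the NOD channel the scanner's signals called 4 from 10 days to 4 weeks (all genes: 2704), 1 from 12 to 20 weeks (809) and 6 from 10 days to 12 weeks (2835). Without both weak mice 1 was called there from 12 to 20 weeks (all genes: 301) and 1 from 4 to 20 weeks (1578).

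Leaving out 1 mouse at a time, the count of called members ran from 2 to 3 at 4 weeks (all genes: 410 to 598). At 12 weeks it was 1 to 2 (557 to 705) and at 20 weeks 3 to 4 (859 to 1001). From 10 days to 4 weeks it was 3 to 4 (1534 to 1744) and from 12 to 20 weeks 1 to 2 (365 to 483). From 4 to 20 weeks it was 2 to 3 (670 to 1221) and from 10 days to 20 weeks 2 to 4 (2159 to 2364). For the F test it was 3 to 6 (13148 to 14219). In the NOD channel it ran from 2 to 4 from 10 days to 4 weeks (all genes: 514 to 693). There it was 1 to 2 from 4 to 12 weeks (840 to 1049) and 0 to 2 from 4 to 20 weeks (819 to 1281). With the replicate number as a block (replicate block) all 16 calls between ages held; the check of the pairing did not show paired mice. Scan day could not be a block, since all arrays had 1. Over all genes the number called at an age was 504 to 922. It was 780 to 4290 with median centring, 2122 to 3251 with the scanner's signals and 1550 to 2648 with the deposited ratios. Between ages it was 436 to 2266, and from 12 to 20 weeks it went from 436 to 7665, 2548 and 1990 under these settings and to 194 with slide as a fixed block. Without both weak mice the count from 4 to 20 weeks went from 870 to 1530. In the NOD channel 64 genes were called from 12 to 20 weeks, 29 to 103 without 1 mouse, 301 without both weak mice and 809 with the scanner's signals. Dim probes limit what can be seen of Nts, Adcyap1 and most receptors.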
